A study of Rattus norvegicus with 8 samples.

Results

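Lungs of rats that had received 7 days of cobalt, at 12.5 mg/kg of body weight, were compared with the lungs of rats given normal saline over the same 7 days, before either group met hypoxia. The comparison uses the 0 h channel of each of 8 two-colour arrays, which makes 8 of the 16 channels in the series: the Cy5 channel of the 4 cobalt arrays and the Cy3 channel of the 4 saline arrays. The other channel of each array held lung RNA of the same pretreatment after 6, 12, 24 or 48 h of hypobaric hypoxia at a simulated altitude of 30000 ft. The labels do not name the cobalt salt, and they give neither the number of animals behind an RNA nor whether RNA was pooled. The titles give 1 control RNA for all 4 cobalt arrays and 1 for all 4 saline arrays, so each 0 h group is 1 RNA hybridised 4 times. A difference at 0 h therefore has no biological replicate and carries no p-value here, and its SD over hybridisations is a technical one.

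Cobalt ions block the prolyl hydroxylases that mark the alpha subunits of hypoxia-inducible factor (HIF) for destruction, which is why cobalt salts are used as a chemical stand-in for hypoxia. HIF switches on genes of glycolysis, glucose uptake, angiogenesis and erythropoietin production. Metal exposure is also known to induce metallothioneins, which bind metal ions, and haem oxygenase. In the lung, the airway lining holds club cells rich in cytochromes P450, ciliated cells and secretory cells, and the alveoli hold type I and type II epithelium over a dense capillary bed.

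Cobalt RNA was in Cy5 on slide 2 and saline RNA in Cy3 on slide 1, and the slides were scanned at different times, so cobalt, dye, slide and scan cannot be told apart at 0 h. Each gene was therefore set beside the hypoxia channels of the same arrays, in which the dyes are the other way round (cobalt in Cy3, saline in Cy5). A dye bias that both slides share has opposite signs in these 2 differences, whereas a slide effect has the same sign in both. The hypoxia channels hold 1 RNA per pretreatment and duration, so cobalt minus saline there was tested with limma over 4 against 4 channels, with Benjamini-Hochberg adjusted p-values. That test does not separate cobalt from dye or slide, and the hypoxia difference also holds whatever hypoxia did in each pretreatment. All levels are log2 normalised intensities and all differences are cobalt minus saline on the log2 scale. A gene is called past the fold when its difference is at least 1 in size, which is a 2-fold difference and is a rule of size with no test.

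The share of spots that passed the scanner's test against background was 63.5% to 69.7% in the cobalt 0 h channels and 62.8% to 67.2% in the saline ones. The hybridisations of a 0 h RNA correlated at 0.993 to 0.998 in cobalt and at 0.991 to 0.998 in saline, and cobalt with saline at 0.959 to 0.968. The median SD over the 4 hybridisations was 0.0914 in cobalt and 0.108 in saline. Lung markers were bright in both groups: the surfactant protein gene Sftpc, partly saturated, lay between 15.04 and 15.27 in cobalt and between 15.84 and 15.92 in saline.

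At 0 h, 646 of 22316 genes were higher in cobalt past the fold (2.89%) and 783 were lower (3.51%), together 1429 (6.4%). The dye check kept the sign of most of them: 519 of the 646 and 722 of the 783 had the same sign in the hypoxia channels. The check was met past the fold by 281 higher genes (1.26% of all genes) and 381 lower genes (1.71%), together 662 (2.97%), while 13 of the higher genes and 2 of the lower genes were past the fold the other way. Cobalt and saline channels did not overlap at 0 h for 6706 higher genes (30.1%) and 5987 lower genes (26.8%), so a lack of overlap between hybridisations of single RNAs is common here. In the hypoxia channels limma called 3465 genes higher (15.5%) and 4010 lower (18%) at an adjusted p under 0.05. Over all genes the 2 differences had a Pearson correlation of 0.61 and a Spearman correlation of 0.55, as a description over genes that share slides. The split at 0 h depends on scaling. Setting only the channel medians equal gave 913 higher and 1824 lower genes, so that higher genes made up 33.4% of those past the fold, against 45.2% with quantile normalization. The same change moved the median difference of all genes at 0 h to -0.10, against 0.01, and the Pearson correlation between the dye orientations to 0.04.

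**Figure D1:**
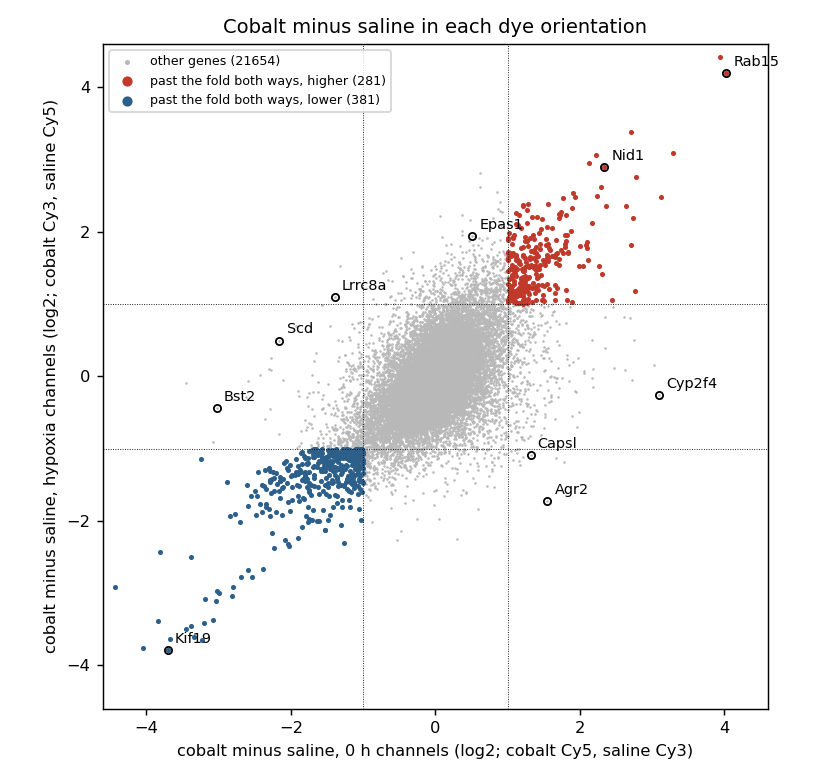
Each point is 1 of 22316 genes. The x axis gives cobalt minus saline in the 0 h channels and the y axis cobalt minus saline in the hypoxia channels of the same arrays, where the dyes are reversed (both log2). Dotted lines mark the fold rule of 1. The 281 red and 381 blue genes are past it with 1 sign in both orientations, and genes such as Capsl and Lrrc8a change sign.

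A minority of the genes lower in cobalt both ways had a probe with a stretch of tandem repeat, a sequence feature that the fold rule did not use. Probes of 8 of the 15 lower genes named here by size hold 8 or more letters in a row of a tandem repeat of CCCTAA (7 genes) or of CCT (1 gene), as do none of the 15 higher genes. CCCTAA is the C-rich strand of the vertebrate telomere repeat. The probes are 60 bases long and are shown 5′ to 3′ with the repeat stretch in capitals, because these letters are shared by 8 of the 15 named lower genes.
Kif19 (chr10:104686179-104687345, + strand, a span longer than the probe): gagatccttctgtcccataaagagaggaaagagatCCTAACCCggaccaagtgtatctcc
Dlk1 (chr6:134034500-134034559, + strand): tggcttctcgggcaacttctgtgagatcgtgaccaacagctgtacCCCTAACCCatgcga
Rbm38 (chr3:163791891-163792475, + strand, a span longer than the probe): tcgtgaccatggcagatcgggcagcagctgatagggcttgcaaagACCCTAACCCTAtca
Ifna4 (chr5:107891941-107892000, - strand): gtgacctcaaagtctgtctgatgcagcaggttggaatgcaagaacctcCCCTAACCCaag
Tac4 (chr10:83968137-83968196, + strand): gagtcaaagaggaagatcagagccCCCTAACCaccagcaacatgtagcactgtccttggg
Zbtb39 (chr7:67755295-67755354, + strand): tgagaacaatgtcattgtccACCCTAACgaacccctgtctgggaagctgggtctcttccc
Or10s1 (chr8:42975452-42975511, + strand): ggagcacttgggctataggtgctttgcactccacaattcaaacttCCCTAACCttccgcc
Ache (CCT repeat): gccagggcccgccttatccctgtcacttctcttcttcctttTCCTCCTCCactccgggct
The coordinates are those of the scanner files, in the rn3 build. This feature was looked for after the values had been seen, with CCCTAA, CCT and CAC as the units and TTAGGG, AGG and GTG as their reverse complements, and a probe could hold more than 1 of them.

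The share of genes lower both ways grew with the length of the repeat stretch on 1 strand. Of genes whose longest CCCTAA stretch was 6 letters, 1.85% were lower both ways, close to the 1.71% of all genes. The share was 9.09% of the 165 genes with 7 letters, 36.2% of the 58 with 8 letters and 68.2% of the 22 with 9 or more. Median differences moved in step: in the group of 9 or more letters they were -1.75 at 0 h and -1.83 in the hypoxia channels. With TTAGGG, the reverse complement, 1 of 18 genes with 9 or more letters was lower both ways (5.56%), at medians of -0.09 and -0.28. CCT and CAC stretches showed the same direction: 50% of 20 genes and 31.2% of 16 genes with 9 or more letters were lower both ways, against 0 of 21 with AGG and 0 of 20 with GTG.

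**Figure D2:**
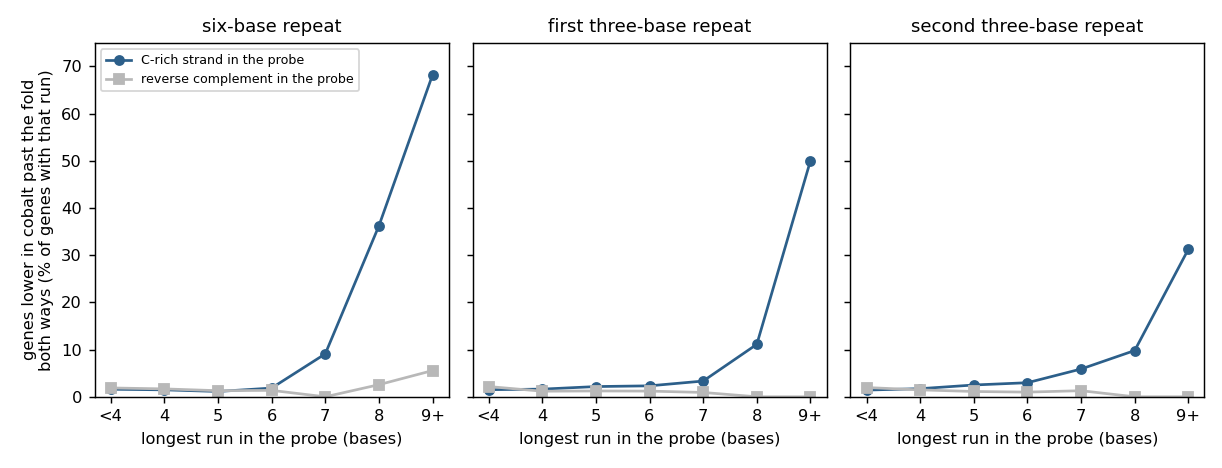
The y axis gives the percentage of genes that were lower in cobalt past the fold both ways, by the longest stretch of a tandem repeat in the gene's probe (x axis, bases). Blue circles are the C-rich strand and grey squares its reverse complement. In the left panel the blue line reaches 36.2% at 8 bases and 68.2% at 9 or more, while the grey line stays at or under 5.56%. The 2 highest length classes hold 16 to 72 genes each.

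In all, 61 of the 381 genes lower both ways (16%) had a stretch of 8 or more letters of CCCTAA, CCT or CAC, against 218 of all 22316 genes (0.977%) and 0 of the 281 higher both ways. Reverse complement stretches were held by 2 of the 381 lower genes (0.525%), 8 of the 281 higher genes (2.85%) and 209 of all genes (0.937%). Among the 80 genes lower both ways by at least 2 at 0 h, 36 (45%) had such a stretch. Where a gene had a further probe without a stretch, the stretch probe gave the lower difference in both dye orientations for 26 of 48 genes. For Hnf4a, a liver-enriched transcription factor, the probe with the stretch differed by -2.47 at 0 h and the probes without it by -0.45. Leaving out the 218 genes left 320 lower and 281 higher genes both ways. The part of the repeat stretches in these differences was not tested.

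The levels show which channels carry the difference. Kif19, a kinesin of motile cilia, had levels of 6.36, 6.61, 6.53 and 6.60 in the cobalt 0 h channels, against 10.63, 10.14, 10.12 and 10.03 in the saline 0 h channels. In the hypoxia channels it had 6.92, 6.86, 6.50 and 6.73 in cobalt at 6, 12, 24 and 48 h, against 8.76, 11.94, 11.48 and 9.97 in saline. No saline channel overlapped a cobalt one, which the naming rule required at 0 h. The saline hypoxia channels spanned more than 3 units with their highest value at 12 h. These saline values entered the fold rule, so the profile across the saline arrays is a description of the chosen genes. The order 12, 24, 6, 48 h from high to low in the saline hypoxia channels was found in 130 of the 381 lower genes (34.1%), in 10 of the 281 higher genes (3.56%) and in 8.51% of all genes. The median level of the lower genes in the saline hypoxia channels was 8.32, 9.34, 9.11 and 8.34 at 6, 12, 24 and 48 h, and 9.04, 9.07, 8.97 and 8.76 in the saline 0 h channel of the same arrays. Lower genes whose probe had no stretch of 8 letters had this order in 105 of 320 cases (32.8%), as did 78 of the 218 genes (35.8%) whose probe holds such a stretch. That set shares 61 genes with the lower set, and its repeat units were picked after the values had been seen. It is thus no separate support.

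**Figure D3:**
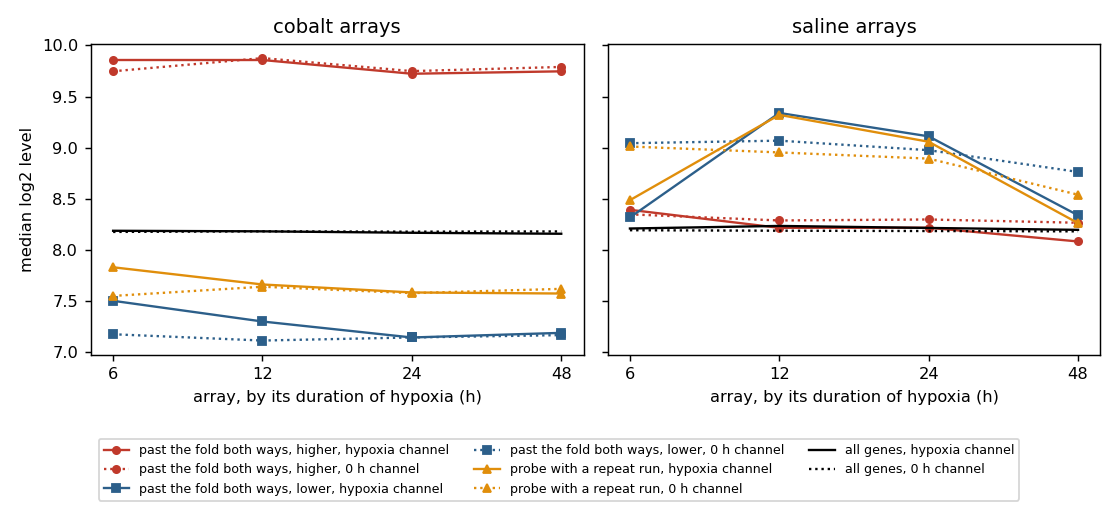
Median log2 level of gene sets (y axis) on each cobalt array (left) and each saline array (right), ordered by the array's duration of hypoxia. Solid lines are hypoxia channels and dotted lines 0 h channels. Genes lower both ways (blue) and genes with a repeat stretch (orange) peak in the saline hypoxia channels at 12 h, where the lower genes reach 9.34, and stay between 7.11 and 7.83 on every cobalt array.

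Further genes of the lower set were as far apart at 0 h. Dlk1, a Notch-related membrane protein of precursor cells, averaged 3.45 lower in cobalt. Rbm38, an RNA-binding target of p53, differed by -3.84 at 0 h and -3.39 ± 0.55 (SE) in the hypoxia channels (limma adjusted p = 0.00174). Tac4, a tachykinin precursor, differed by -3.18 and -3.08, and Zbtb39, a zinc finger protein, by -2.27 and -2.16. Each has 1 probe, and each of these probes holds a CCCTAA stretch. Ache, the acetylcholine-degrading esterase, differed by -2.85 and -1.93.

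Some lower genes were not well above background in any cobalt 0 h channel, so that only a bound on the fold can be given. The bound sets the saline mean against the cobalt mean. Before that, a cobalt level under the lowest signal well above background on its array was raised to that signal. Ifna4, a type I interferon, was at least 9.36-fold lower in cobalt, which is also its measured fold because no level was raised. The olfactory receptor Or10s1 was at least 6.73-fold lower. Cyp11b3, an adrenal steroid hydroxylase, was at least 4.70-fold lower. The hypoxia channels were called for these 3 genes (limma adjusted p = 0.00123, 0.00265 and 0.00464). These genes passed the filter only through the saline channels and were named by the size of both differences. Their p-values were thus favoured by the choice and give no separate support. In the whole set, 46 of the 381 lower genes were not well above background in the cobalt 0 h channels, and 5 of the 281 higher genes were not so in the saline 0 h channels. Cyp11b3 and the eosinophil chemokine Ccl11 (-1.91 and -2.23) have CCCTAA stretches of 7 letters.

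Olfactory receptors as a family leaned to the lower side. Of 214 with a signal, 11 were lower both ways (5.14%) and 0 higher, and the median differences were -0.32 in each orientation, against 0.01 and -0.05 for all genes. Their median level was 6.46 in cobalt and 6.79 in saline, near the floor of the arrays. Genes this dim could pass the filter through 1 group alone, as Or10s1 did through saline. The filter thus favours differences among them, and the counts give no separate support. The part of the filter in this lean was not tested. Or1f26 differed by -2.70 and -2.01 and Or13p5 by -2.40 and -1.88, with no stretch of 8 letters in either probe. Both extremes of probe composition held more genes lower both ways than the 1.71% of all genes. The 543 genes with probes of at most 30% G and C had a median of -0.35 at 0 h and -0.62 in the hypoxia channels, and 41 of them (7.55%) were lower both ways. Of 239 genes with probes over 60% G and C, 11 were lower both ways and 11 higher, with medians of -0.07 and 0.11. The part of base composition in the result was not tested.

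The remaining named lower genes were Fbxw11, a ubiquitin ligase subunit, and Gast, the gastrin precursor. Fbxw11 had 9.80, 9.02, 9.65 and 9.43 in cobalt at 0 h, against 11.80, 11.89, 11.81 and 12.32 in saline. The groups did not overlap, which the naming rule required, but the second probe of Fbxw11 differed by -0.11 at 0 h and 0.07 in the hypoxia channels. Gast differed by -2.78 and -1.90 with its single probe.

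Genes higher in cobalt both ways had a median level of 9.73 in cobalt and 8.28 in saline at 0 h, and the lower genes had medians of 7.15 and 8.95, an order that the choice of genes fixes. Nid1 and Timp3, which act in the extracellular matrix, were among the named higher genes. Of 32 measured matrix genes, however, 3 were higher and 4 lower past the fold at 0 h, against 2.89% and 3.51% of all genes. Timp3 alone of the 32 was higher both ways, as were 1.26% of all genes. Nid1, the nidogen that links laminin to type IV collagen, had levels of 10.92, 11.08, 11.01 and 11.02 in the cobalt 0 h channels, against 8.78, 8.71, 8.67 and 8.53 in the saline ones. The groups were 2.34 apart and did not overlap, and in the hypoxia channels the difference was 2.90 ± 0.29 (SE, limma adjusted p = 0.000197). Genes named by size, here, above and below, were chosen for lack of overlap at 0 h and for the size of both differences. Their lack of overlap was thus fixed by the choice, and small p-values were favoured by it. Many list members below were taken by the size of the mean of both differences. Small p-values in the hypoxia channels were favoured for these too and give no separate support. A second, dimmer Nid1 probe differed by 0.12 and 0.29. Timp3, an inhibitor of matrix metalloproteinases, was higher by 2.10 at 0 h and by 1.86 ± 0.26 in the hypoxia channels (adjusted p = 0.000886).

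Rab15, a small GTPase of endosome recycling, had the largest difference of a named gene. Its brighter probe averaged 13.67 in cobalt and 9.64 in saline at 0 h, a 16.3-fold difference, and differed by 4.19 ± 0.23 in the hypoxia channels (limma adjusted p = 1.05e-05). The second probe differed by 0.81 and 1.06. Both lie on chromosome 6, and the brighter one is 73.3% G and C, against 51.7% in the other. They are shown because the size of the result depends on which is read.
Rab15, brighter probe (chr6:99406553-99406612, - strand): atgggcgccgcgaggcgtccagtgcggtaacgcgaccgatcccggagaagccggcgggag
Rab15, dimmer probe (chr6:99386329-99386388, - strand): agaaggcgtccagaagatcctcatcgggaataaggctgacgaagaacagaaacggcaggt

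Transporters and metabolic enzymes made up part of the higher set. Abcc1, an exporter of glutathione conjugates, had 11.23, 11.35, 11.21 and 11.25 in cobalt at 0 h, against 9.56, 9.53, 9.52 and 9.27 in saline, and differed by 1.79 ± 0.18 in the hypoxia channels (limma adjusted p = 0.000197). Slc4a4, the sodium bicarbonate cotransporter, was higher by 1.68 at 0 h and 1.70 in the hypoxia channels. Gda, the guanine deaminase, was higher by 1.66 and 1.89. Every cobalt channel of these 3 genes lay above every saline channel at 0 h, which the naming rule required.

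Signalling and regulatory genes followed. Fnip2, a folliculin partner in nutrient sensing, had 10.27, 10.17, 10.29 and 10.34 in cobalt at 0 h, against 7.94, 8.06, 8.00 and 7.89 in saline. Its difference of 2.29 came with 2.62 ± 0.15 in the hypoxia channels (limma adjusted p = 1.05e-05). Fam13a, a gene linked to chronic obstructive lung disease in people, was higher by 2.74 and 2.19, and the transcription factors Klf13 and Foxe1 by 1.76 and 1.81 at 0 h and by 2.46 and 2.23 in the hypoxia channels. Med19, a Mediator subunit, was higher by 1.79 and 1.83. Tent5b, a poly(A) polymerase, was higher by 1.77 and 1.71. These genes have 1 probe each.

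Brd1, Rps15 and Man2a1, also in the named higher set, have probes that differ in size. Brd1, a chromatin reader, was higher by 1.93 at 0 h with its brightest probe, and differed by -0.23 and -0.45 with the others. The ribosomal protein gene Rps15 was higher by 2.22 and by 0.98 with its 2 probes. All 5 probes of Man2a1, a Golgi mannosidase, were higher in cobalt at 0 h, by 0.30 to 1.72. The part of the probe in these differences was not tested.

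Probes of a gene agreed less on cobalt against saline than on hypoxia against 0 h. For 3316 genes with several probes, the 2 brightest had a Pearson correlation of 0.40 for the 0 h difference, 0.30 for the hypoxia-channel difference and 0.29 for the mean of the 2. For hypoxia minus 0 h, averaged over both pretreatments, the correlation across the same probe pairs was 0.73. Of the genes with several probes, 116 were higher past the fold at 0 h and 113 lower, and in 89 and 72 of these all probes had the same sign. All probes were past the fold in 19 higher and 15 lower genes.

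Among the genes whose probes were all past the fold at 0 h, L3mbtl3, Ddx6, Bmpr2, Cdc42, Klf7, Pigx, Adamtsl2 and Akap13 were also higher past the fold in the hypoxia channels with their brightest probe. They were singled out after their values were seen. Bmpr2, the bone morphogenetic protein receptor mutated in familial pulmonary hypertension, had 10.62, 10.40, 10.48 and 10.50 in cobalt at 0 h, against 9.45, 9.30, 9.46 and 9.49 in saline. Its 2 probes were higher by 1.07 and 1.22, and the hypoxia-channel difference was 1.93 ± 0.19 (limma adjusted p = 0.000158). Ddx6, an RNA helicase of processing bodies, was higher by 1.28 to 2.02 with its 3 probes. The small GTPase Cdc42 was higher by 1.06 and 1.12, and in neither gene did a cobalt channel overlap a saline channel at 0 h.

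Several airway secretory and drug-metabolising genes were higher in cobalt past the fold at 0 h and inside the fold rule in the hypoxia channels. Cyp2f4, a P450 of club cells, had 13.57, 13.81, 13.62 and 13.68 in cobalt at 0 h, against 10.73, 10.66, 10.65 and 10.24 in saline, an 8.57-fold difference with no overlap. In the hypoxia channels it had 11.69, 10.91, 11.92 and 11.96 in cobalt against 11.75, 11.31, 12.16 and 12.30 in saline, a difference of -0.26 ± 0.27 (limma adjusted p = 0.481). Cyp2a3, another airway P450, was higher by 3.02 at 0 h and by 0.16 in the hypoxia channels. Scgb1a1, the club cell secretoglobin, was higher by 2.17 and 0.51. Of the 17 measured genes of xenobiotic metabolism, 7 were higher past the fold at 0 h and 1 lower, against 2.89% and 3.51% of all genes. Their median was 0.88 at 0 h and 0.08 in the hypoxia channels. The lower one was Cyp1a1, the P450 induced through the aryl hydrocarbon receptor, which had 7.75, 7.72, 7.50 and 7.54 in cobalt against 10.04, 10.18, 10.23 and 10.58 in saline. Cyp1a1 was not well above background in any cobalt hypoxia channel, and its difference there of -0.28 turned to 0.48 with median scaling.

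The club cell list shares Cyp2f4 and Cyp2a3 with the xenobiotic list, so the values of these lists are not separate. Of its 12 measured markers, 5 were higher past the fold at 0 h and 1 lower (Bpifa1, a secreted airway defence protein, -1.54), against 2.89% and 3.51% of all genes. Its summed linear signal was 72241 to 74801 in the cobalt 0 h channels and 27147 to 30680 in the saline ones. In the hypoxia channels the order was the other way, with sums of 42043 to 58453 in cobalt and 58505 to 95063 in saline and a list median of -0.37. In bulk RNA, more cells of a type and more RNA per cell cannot be told apart. The part of cell content in the P450 differences was not tested.

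**Figure D4:**
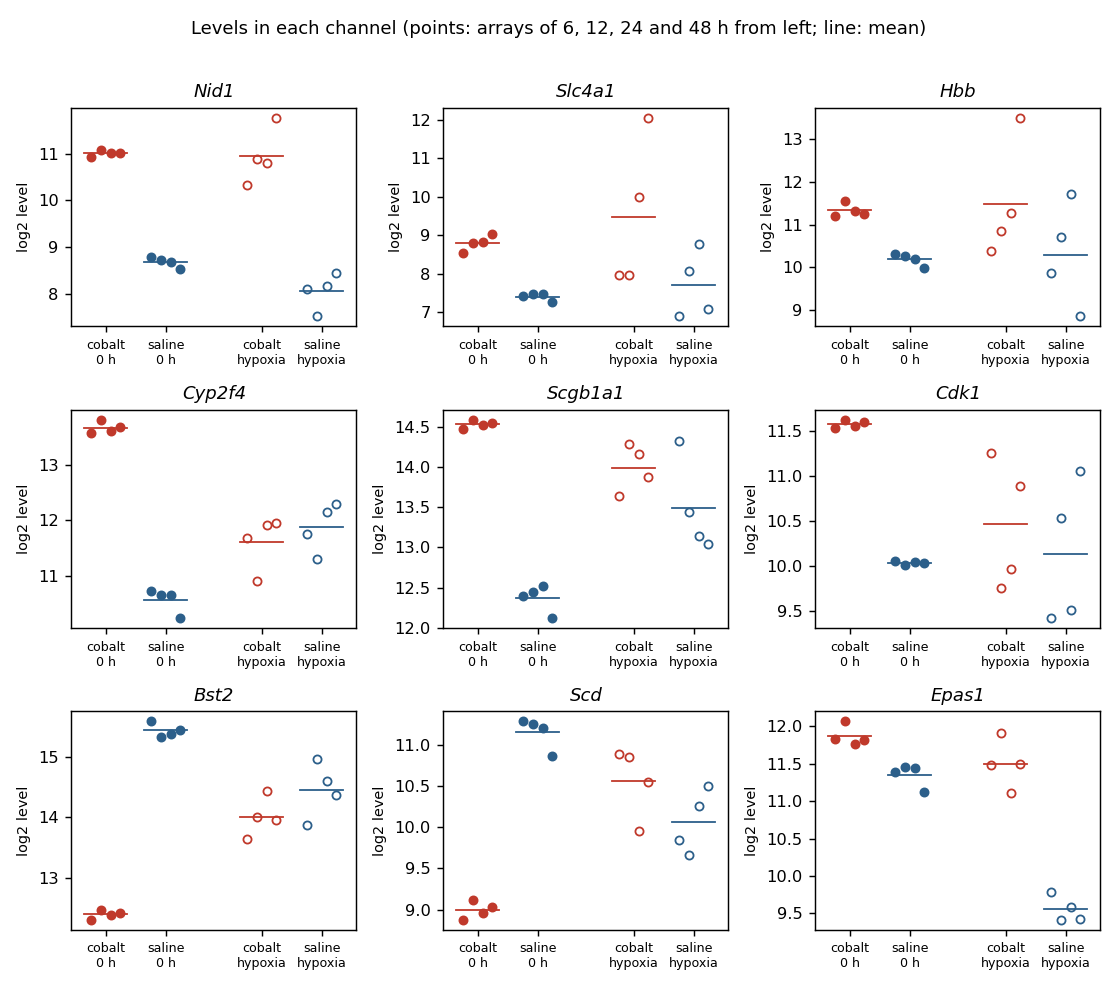
Log2 level of 9 genes in each of the 16 channels, with cobalt in red and saline in blue, 0 h channels filled and hypoxia channels open. Points run from the 6 h to the 48 h array within a group and lines are means. Nid1 keeps its difference at 0 h and in hypoxia, Cyp2f4, Scgb1a1, Cdk1, Bst2 and Scd are apart at 0 h and overlap in hypoxia, and Epas1 is farther apart in hypoxia than at 0 h.

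Cilia genes differed in sign between the dye orientations. Of 16 measured ciliated-cell markers, 15 were positive at 0 h and 3 were higher past the fold, against 2.89% of all genes. The list median was 0.70. The median was -0.68 in the hypoxia channels, where limma called 11 lower and 0 higher, against 18% and 15.5% of all genes. Rsph1, a radial spoke protein, had 9.64, 9.68, 9.74 and 9.71 in cobalt at 0 h against 8.24, 8.29, 8.40 and 8.51 in saline. Rsph1 in the hypoxia channels differed by -0.69 ± 0.19 (limma adjusted p = 0.0188). Capsl (1.32 and -1.09) and Enkur (1.21 and -1.11), both linked to cilia, were past the fold in opposite directions, as were Agr2, a mucous-cell disulphide isomerase (1.55 and -1.73), and the volume-regulated channel subunit Lrrc8a, lower at 0 h (-1.39) and higher in the hypoxia channels (limma adjusted p = 0.000693). A second Lrrc8a probe differed by -0.15 at 0 h. Without the saline 12 h array, where Agr2 reached 13.16, its hypoxia-channel difference was -0.80. The summed signal of the ciliated markers was 52947 to 66793 in cobalt at 0 h and 53184 to 55440 in saline.

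Of 34 measured cell cycle genes, 11 were higher in cobalt past the fold at 0 h and 0 lower, against 2.89% and 3.51% of all genes. Of the 34, 31 were above 0, and the median was 0.80. Ccnb1, the mitotic cyclin, had 9.33, 9.36, 9.32 and 9.37 in cobalt against 7.61, 7.65, 7.56 and 7.71 in saline, and its second probe was higher by 0.78, inside the fold rule. Cdk1, its kinase partner, was higher by 1.54 and Kif20a, a kinesin of cytokinesis, by 1.68. Both probes of Plk1 (1.27 and 1.36) and of Bub1b (1.31 and 1.64), which act in mitosis, were past the fold. The list median was -0.01 in the hypoxia channels, where limma called 1 of the 34 higher and 1 lower, against 15.5% and 18% of all genes. Cdk1 there had 11.25, 9.75, 9.96 and 10.88 in cobalt at 6 to 48 h, against 9.42, 10.53, 9.51 and 11.06 in saline, and the groups overlapped.

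Immediate early genes answer within minutes to growth and stress signals. Of 23 measured, 8 were lower in cobalt past the fold at 0 h and 0 higher, against 3.51% and 2.89% of all genes. Their median was -0.64, and 1 was lower both ways, against 1.71% of all genes. Ccn1, a matricellular protein of that class, had 10.53, 10.76, 10.38 and 10.50 in cobalt against 12.11, 12.15, 12.20 and 12.19 in saline, and differed by -0.08 in the hypoxia channels. Its second probe differed by -0.67 at 0 h, inside the fold rule. Atf3, a stress transcription factor, differed by -1.46 and -0.85 (limma adjusted p = 0.0203). Zfp36, which destabilises cytokine mRNA, was lower both ways, by -1.29 and -1.26 (adjusted p = 0.00122). Its 0 h difference was -0.76 with the probe GC trend removed. The list median in the hypoxia channels was -0.15, and limma called 4 members higher and 3 lower there, against 15.5% and 18% of all genes.

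Of 27 measured interferon-stimulated genes, 3 were lower in cobalt past the fold at 0 h and 0 higher, against 3.51% and 2.89% of all genes. Past the fold both ways, 1 was lower, against 1.71% of all genes. The median was -0.51, with 25 members below 0. In the hypoxia channels limma called 1 higher and 1 lower, against 15.5% and 18% of all genes. Bst2, the tetherin that holds budding virus at the cell surface, had 12.32, 12.48, 12.40 and 12.43 in cobalt against 15.58, 15.33, 15.38 and 15.44 in saline, with no overlap and an 8.14-fold gap. Its 2 probes, in different stretches of chromosome 16, gave -3.02 and -3.46 and are shown because they agree.
Bst2, first probe (chr16:18698674-18698733, - strand): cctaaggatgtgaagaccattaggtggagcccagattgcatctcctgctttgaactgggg
Bst2, second probe (chr16:18699041-18699100, - strand): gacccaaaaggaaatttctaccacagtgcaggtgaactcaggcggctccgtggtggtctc
In the hypoxia channels the first probe differed by -0.44 ± 0.23 (limma adjusted p = 0.163). Mx2, a dynamin-like antiviral GTPase, differed by -1.71 and -0.71. Oas1b, of the oligoadenylate synthetase family, differed by -1.52 and -2.13 (adjusted p = 0.0211). The list median of -0.39 in the hypoxia channels became 0.22 without the saline 12 h array, in which Oas1b stood at 11.18 against 7.88 to 9.07 on the other saline arrays.

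Lipid genes went in different directions. Acot1, a fatty acyl thioesterase induced with fatty acid oxidation, had 10.81, 11.03, 10.84 and 10.93 in cobalt at 0 h against 7.79, 7.79, 7.76 and 7.80 in saline, an 8.67-fold difference. Of 20 measured fatty acid oxidation genes, 3 were higher past the fold at 0 h and 0 lower, against 2.89% and 3.51% of all genes. Scd, the stearoyl-CoA desaturase, had 8.88, 9.11, 8.96 and 9.03 in cobalt against 11.28, 11.26, 11.21 and 10.86 in saline. Of 21 measured genes of cholesterol and fatty acid synthesis, 3 were lower past the fold and 0 higher, against the same shares of all genes. The median of these 21 was -0.40 at 0 h and -0.01 in the hypoxia channels. Srebf1, their master transcription factor, differed by -1.12 with its brighter probe and by -0.46 with the other. None of these lipid genes was past the fold with the same sign in both orientations.

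Of 14 clock genes, 4 were higher in cobalt past the fold at 0 h and 1 lower, against 2.89% and 3.51% of all genes. Tef alone was higher both ways, as were 1.26% of all genes. Tef had 8.43, 8.79, 8.58 and 8.64 in cobalt at 0 h against 7.02, 6.96, 6.88 and 6.84 in saline, and 1.23 ± 0.28 more in the hypoxia channels (limma adjusted p = 0.00897). Dbp, a related factor that peaks once a day, was higher by 1.61 at 0 h, and Per3 by 1.28 and, with its second probe, 0.77. Neither was called in the hypoxia channels (limma adjusted p = 0.177 and 0.128). Bmal1, which peaks in the opposite phase in rodents, differed by -1.34 and -0.46. The labels used here give no hour of killing.

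Of 18 measured erythroid genes, 3 were higher in cobalt past the fold at 0 h and 0 lower, against 2.89% and 3.51% of all genes. Each of the 3 was past the fold both ways, as were 1.26% of all genes on the higher side. Slc4a1, the band 3 anion exchanger of the red cell membrane, had 8.55, 8.82, 8.82 and 9.03 in cobalt against 7.42, 7.47, 7.48 and 7.27 in saline. Hbb, a beta globin, was 2.21-fold higher and Alas2, the erythroid enzyme that starts haem synthesis, 2.05-fold higher. No channels overlapped at 0 h. In the hypoxia channels the differences of 1.79, 1.21 and 1.20 were not called (limma adjusted p = 0.112, 0.203 and 0.129), and the groups overlapped. They rested on the cobalt 48 h array, in which Slc4a1 reached 12.05, Hbb 13.50 and Alas2 13.78. Without it they were 0.93, 0.54 and 0.63. The summed signal of the erythroid list at 0 h was 77356 to 86796 in cobalt and 81947 to 117820 in saline, which is not the direction of these 3 genes. Globin and band 3 transcripts mark blood left in the lung, and the part of blood content was not tested. Over the 18 measured erythroid genes the median was 0.21 at 0 h and 0.52 in the hypoxia channels, and the erythropoietin receptor Epor differed by -0.90.

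Few genes of the HIF pathway were past the fold at 0 h, as were few of all genes (6.4%). Of 12 measured HIF subunits and oxygen-sensing hydroxylases, 0 were past the fold in either direction, which a list of this size cannot tell from that share. Hif1a had 11.72, 11.72, 11.66 and 11.73 in cobalt against 11.96, 11.97, 11.82 and 11.83 in saline. Epas1, which encodes HIF-2 alpha, was higher by 0.51 at 0 h and by 1.94 ± 0.18 in the hypoxia channels (limma adjusted p = 0.000129). Egln1 and Egln3, prolyl hydroxylases that limit HIF, differed by -0.15 and 0.19.

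Of 30 measured HIF targets outside glycolysis, 0 were higher past the fold and 1 was lower, against 2.89% and 3.51% of all genes. That one was Igfbp1, an insulin-like growth factor binding protein, with 7.32, 7.24, 7.35 and 7.37 in cobalt against 9.43, 9.43, 9.54 and 8.86 in saline, and -1.38 ± 0.27 in the hypoxia channels (limma adjusted p = 0.0045). Vegfa, the endothelial growth factor, differed by 0.34 at 0 h and 1.81 in the hypoxia channels, and both of its probes did so to a like degree (0.21 and 2.22 in the second). The glucose transporter Slc2a1 differed by -0.31, Bnip3 by 0.14, Pdk1 by 0.46, Car9 by -0.69, Adm by -0.85 and Ankrd37 by 0.28. Of 21 glycolysis and glucose transport genes, 0 were past the fold at 0 h, against 6.4% of all genes. Aldoa was higher by 0.79 and Tpi1 by 0.65. Of the 21, limma called 7 higher and 1 lower in the hypoxia channels, against 15.5% and 18% of all genes. The median there was 0.32, and -0.25 with median scaling. Epo was not well above background in any channel and has no value.

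Few metal and haem genes were past the fold at 0 h, as were few of all genes (2.89% higher and 3.51% lower). Mt1, a metallothionein, had 10.48, 10.49, 10.41 and 10.38 in cobalt against 10.18, 9.74, 9.80 and 9.57 in saline, a 1.53-fold difference without overlap. Hmox1, the inducible haem oxygenase, was 1.37-fold higher at 0 h, and higher by 1.12 ± 0.33 in the hypoxia channels (limma adjusted p = 0.0243). The zinc exporter Slc30a1 differed by 0.27 and the zinc importer Slc39a10 by 0.91 at 0 h and 0.98 in the hypoxia channels (adjusted p = 0.00112). A second, dimmer Slc39a10 probe differed by 0.27 and 0.25. Of 16 metallothionein and metal-handling genes, 0 were higher past the fold and 1 was lower. Of 26 haem and iron genes, 0 were past it. Tf, the iron carrier, differed by 0.57, its receptor Tfrc by -0.47 and the iron hormone Hamp by -0.62.

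Antioxidant genes gave a partial difference. Of 35 measured, 6 were higher past the fold at 0 h and 0 lower, against 2.89% and 3.51% of all genes. Gpx2, the epithelial glutathione peroxidase, averaged 9.47 in cobalt against 8.14 in saline, did not overlap at 0 h and was past the fold both ways (1.33 and 1.03, limma adjusted p = 0.005 in the hypoxia channels). Its other probe was higher by 0.42. Gstm1, a glutathione transferase, was 2.82-fold higher at 0 h and differed by 0.41 in the hypoxia channels. Other classical targets of the oxidant sensor Nrf2 moved little at 0 h, with Nqo1 at 0.33, Gclc at -0.13, Txnrd1 at -0.44 and Srxn1 at -0.15. Further Txnrd1 probes were at -0.10 and 0.46, so its sign depends on the probe. Gpx3, the secreted peroxidase, differed by 0.09 at 0 h and by 1.93 in the hypoxia channels (adjusted p = 0.00242).

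Epithelial ion transport genes included 4 of 15 higher past the fold at 0 h and 0 lower, against 2.89% and 3.51% of all genes. Scnn1a, the alpha subunit of the epithelial sodium channel, had 11.57, 11.72, 11.66 and 11.69 in cobalt against 10.61, 10.51, 10.54 and 10.35 in saline, and its 2 probes gave 1.16 and 1.58. Atp1b1, a subunit of the sodium pump, was higher by 1.70 at 0 h and differed by 0.11 in the hypoxia channels, a value that became -0.77 with median scaling. Nedd4l, the ligase that removes the sodium channel from the membrane, was higher by 0.94 and 0.71.

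Endothelial and smooth muscle genes differed more in the hypoxia channels than at 0 h. Of 29 endothelial genes, 0 were higher past the fold at 0 h and 1 was lower, against 2.89% and 3.51% of all genes. At 0 h, 10 of the 29 were above 0, with a list median of -0.17. In the hypoxia channels limma called 13 higher and 0 lower, against 15.5% and 18% of all genes. The summed signal of the endothelial markers at 0 h was 188541 to 198096 in cobalt and 231836 to 249612 in saline. Tie1, an endothelial receptor kinase, differed by 0.37 and 2.24 (limma adjusted p = 0.000135), and Nos3, the endothelial nitric oxide synthase, by 0.69 and 1.51. Both were taken from the list by the mean of both differences, so a large hypoxia-channel difference and a small p-value were favoured. Ednrb, the endothelin B receptor, had 10.79, 10.84, 10.85 and 10.84 in cobalt at 0 h against 9.85, 9.84, 9.81 and 9.86 in saline, just inside the fold rule at 0.99. Apln, the apelin ligand, differed by -1.72 with its first probe and -0.22 with the second. Col4a2 and Loxl2, which form and crosslink basement membrane, were higher by 0.87 and 0.80 at 0 h and by 2.31 and 2.19 in the hypoxia channels. Of 14 smooth muscle genes limma called 8 higher and 1 lower in the hypoxia channels, against 15.5% and 18% of all genes. Their median there of 0.68 became -0.03 with median scaling.

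Immune and inflammatory genes were split. Of 29 measured cytokine and chemokine genes, 2 were higher past the fold at 0 h and 2 lower, against 2.89% and 3.51% of all genes. The list median was -0.01 at 0 h and -0.33 in the hypoxia channels. There limma called 2 higher and 7 lower, against 15.5% and 18% of all genes. Ccl19, a chemokine of lymphoid tissue, had 11.17, 11.40, 11.21 and 11.23 in cobalt at 0 h against 8.47, 9.01, 8.36 and 8.68 in saline, but the hypoxia channels overlapped at a difference of 0.08. Ccl3 differed by -1.22 and -0.61, Cxcl1 by -0.90 and -1.25 and Ccl2 by -0.42 and -1.23. Camp, the cathelicidin of neutrophils, was lower both ways (-1.48 and -1.18, limma adjusted p = 0.0129). Prg2, the major basic protein of eosinophils, differed by -1.36 and -1.41 (adjusted p = 0.0532). Of 12 neutrophil markers, 1 was higher and 2 lower past the fold at 0 h, against 2.89% and 3.51% of all genes. Their summed signals at 0 h were 7840 to 8684 in cobalt and 11455 to 12532 in saline.

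Of 19 measured glucocorticoid-response genes, 2 were higher past the fold at 0 h and 1 lower, against 2.89% and 3.51% of all genes. The list median was 0.205 at 0 h. In the hypoxia channels limma called 5 higher and 0 lower, against 15.5% and 18% of all genes. Zbtb16, which glucocorticoids induce, was 1 of the 2 higher at 0 h. It was not well above background in any saline 0 h channel and was at least 2.42-fold higher in cobalt. In the hypoxia channels it was higher by 1.53 ± 0.27 (limma adjusted p = 0.00237). Zbtb16 passed the filter only through the cobalt channels and was named by the mean of both differences. Its p-value was thus favoured by the choice and gives no separate support. Sult1a1, a phenol sulphotransferase, was higher by 1.85 and 0.15, and Hsd11b2, which inactivates corticosterone, differed by -1.30 and -0.60. Akap5, an anchoring protein used as a type I cell marker, was higher both ways (1.47 and 2.04, adjusted p = 0.00209), while the type I list had a median of 0.26 and no other member past the fold at 0 h.

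Across all 41 gene lists, 748 of 912 symbols were measured. At 0 h, 63 of them were higher past the fold (8.42%, against 2.89% of all genes) and 32 lower (4.28%, against 3.51%). Past the fold both ways were 9 higher (1.20%, against 1.26% of all genes) and 7 lower (0.936%, against 1.71%), and 27 lists had no such member. These lists were chosen with results of these arrays known.

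**Figure D5:**
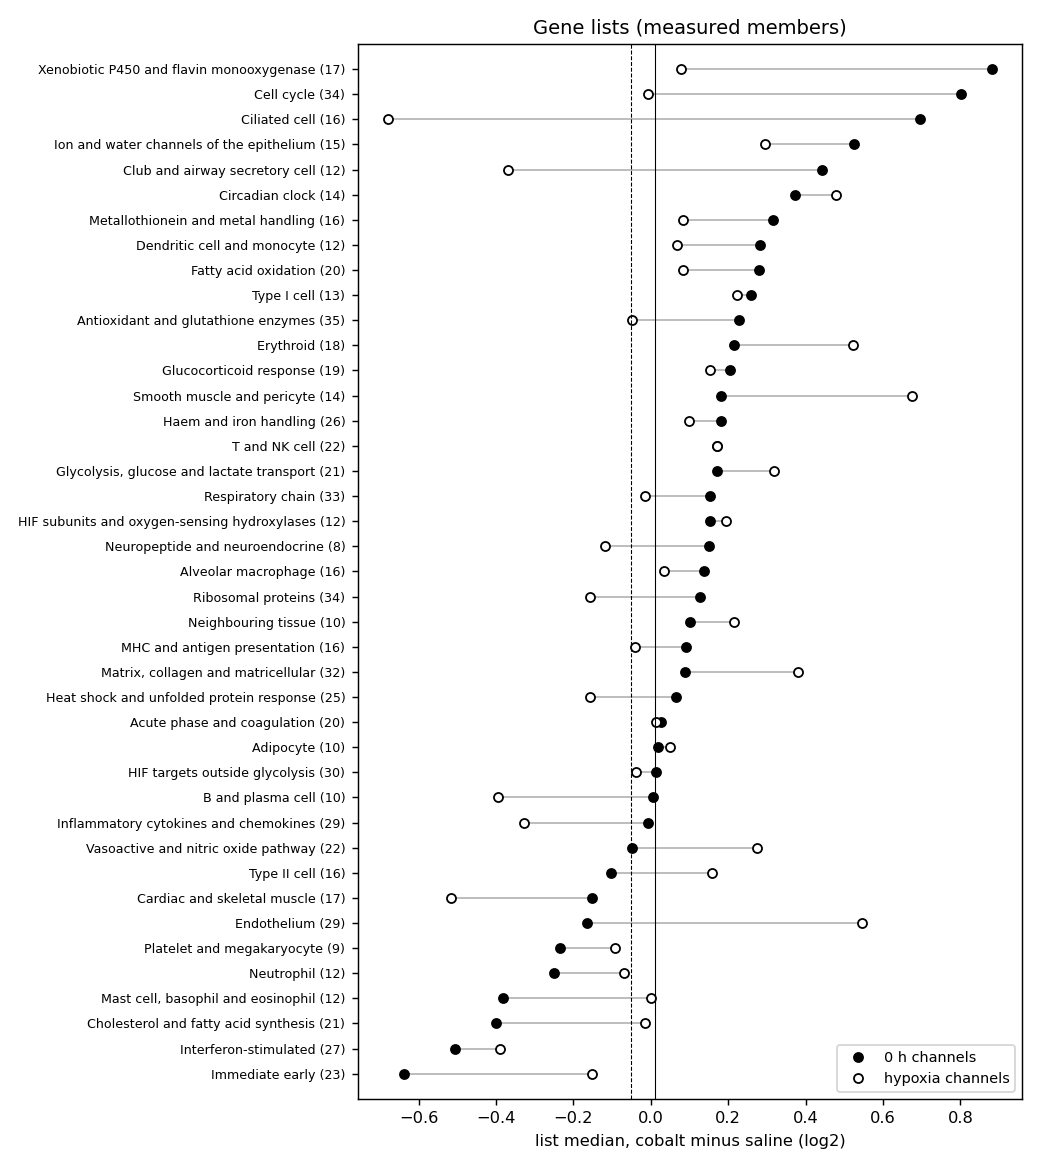
Median cobalt minus saline difference (x axis, log2) of each gene list, with the number of measured members in brackets. Filled circles are the 0 h channels and open circles the hypoxia channels, with vertical lines at the medians of all genes (solid for 0 h, dashed for hypoxia). Xenobiotic metabolism (0.88 at 0 h) and cell cycle (0.80) lie highest at 0 h, immediate early genes lowest (-0.64), and the ciliated list lies at 0.70 at 0 h and at -0.68 in the hypoxia channels.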

How the data were processed

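Rat lung RNA was hybridised to 8 two-colour Agilent arrays. The deposited values are scanner intensity per spot, from Feature Extraction 9.5.1.1 per the file headers, and probe positions there are in the rn3 build. RNA extraction and labelling are described here only as far as the labels state them. The authors' matrix of processed values, with a single ratio for each array, was not used.

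Red and green mean signals were background-corrected with normexp (offset 50), put on the log2 scale and quantile normalized over the 16 channels (R 4.3.3, limma 3.58.1). Control spots and outlier spots were left out. A probe was kept when well above background in all 4 cobalt 0 h channels or all 4 saline 0 h channels, which kept 26481 of 41012 probes, and a gene took its brightest probe, giving 22316 genes. Of the probes, 20911 kept the file's own name, and 10735 were named by accession, 5543 by symbol, 3706 by synonym and 117 by another accession in the file, from RefSeq names (GRCr8).

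Differences at 0 h were described with no test. The hypoxia channels were fitted with limma (lmFit, eBayes with a trend), and the fit was tested on simulated data. Replicates 1 to 4 are the arrays of 6, 12, 24 and 48 h. Nothing says that they came from separate animals, so p-values measure the spread between these samples.

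The rule for naming genes took 15 a direction among those past the fold both ways and without overlap at 0 h, ranked by the smaller difference. It also took up to 4 members of each list by the mean of both differences, and genes tied to cobalt, hypoxia and metals. Up to 3 a side were added that were past the fold in opposite directions at 0 h and in the hypoxia channels. The members, lists and genes were chosen with earlier results of these data known, and genes with several agreeing probes and the repeat stretches after their values were seen. Alternatives changed the background correction, normalization, filters, fold rule, probe choice and arrays used. Some named genes are not reported here.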

Additional observations from a re-analysis of the deposited data

Results flagged for a closer look

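In 19 of 264 groups of 4 hybridisations (7.20%), over 132 named genes, 1 hybridisation stood apart from the other 3 by Dixon's criterion, which chance meets in about 1 in 20 groups. Log2 levels are given with the range of the other 3. In the cobalt 0 h channels, Col4a2 was at 9.64 on the 6 h array (others 9.97 to 10.02), Cfap126 at 11.02 (10.84 to 10.87), Ednrb at 10.79 (10.84 to 10.85), Klf7 at 11.42 (11.60 to 11.62) and Oas1b at 7.54 (7.40 to 7.42). On the cobalt 12 h array, Fam13a was at 10.28 (10.45 to 10.46), Ddx6 at 11.68 (11.90 to 11.95) and Tfrc at 8.97 (9.36 to 9.42). On the cobalt 24 h array, Hif1a was at 11.66 (11.72 to 11.73).

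In the saline 0 h channels, 8 of 10 such values came from the 48 h array. They were Abcc1 at 9.27 (others 9.52 to 9.56), Klf13 at 9.72 (10.25 to 10.26), Fbxw11 at 12.32 (11.80 to 11.89), Zfp36 at 8.75 (8.09 to 8.13), Cyp2f4 at 10.24 (10.65 to 10.73), Igfbp1 at 8.86 (9.43 to 9.54), Slc30a1 at 8.11 (7.69 to 7.73) and Bub1b at 7.55 (7.70 to 7.73). On the saline 24 h array, Loxl2 was at 8.83 (8.79 to 8.80) and Tfrc at 9.67 (9.78 to 9.79).

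For 5 of the 132 named genes every cobalt channel lay on one side of every saline channel at 0 h and on the other side in the hypoxia channels. Capsl, Enkur and Lrrc8a were named for being past the fold in opposite directions, so their change of sign was fixed by the choice. The 0 h difference minus the hypoxia-channel difference was 2.40 for Capsl, 2.32 for Enkur, 2.02 for Rsph1, 1.92 for Cfap126 and -2.49 for Lrrc8a. The second Cfap126 probe, at 1.36 and 0.02, did not reverse. These differences were not tested, and 586 of 22316 genes showed the same kind of reversal.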

How the results depend on the processing

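Of 258 recomputed counts, 220 stayed within 1.5 times their value and 38 did not. The main counts were 646 higher and 783 lower at 0 h, 281 and 381 both ways, 3465 and 4010 called in the hypoxia channels, 528 and 617 by the mean of both differences, and 63, 32, 9 and 7 list members (higher and lower at 0 h, then higher and lower both ways). The scanner software's processed signals gave 2287 and 2339 at 0 h, 1093 and 1551 both ways, 1962 and 2173 by the mean, and 110, 62, 32 and 25 list members. Median scaling gave 1824 lower at 0 h, 5834 called higher in hypoxia and 13 list members lower both ways. A normexp offset of 16 gave 1007 and 1195 at 0 h, 427 and 645 both ways, 993 lower by the mean and 14 list members higher both ways. A strict filter on dim probes gave 242 lower both ways. A level of at least 9 in both 0 h groups, chosen after seeing the data, gave 247 and 205 at 0 h, 1236 and 1360 called in hypoxia, 104 and 70 both ways, 223 and 137 by the mean, and 33, 17, 5 and 0 list members. A fold rule of 0.5 gave 1330 and 1772 both ways, and a rule of 2 gave 16 and 30. Leaving out repeat stretches or the trend with probe GC, both added after seeing the data, moved no count by over 1.5 times.

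Leaving out 1 array at a time gave 633 to 677 higher and 770 to 831 lower at 0 h, 2536 to 3606 and 2672 to 4121 called in hypoxia, 266 to 294 and 296 to 451 both ways, 526 to 599 and 563 to 712 by the mean, and 61 to 69, 30 to 36, 6 to 14 and 6 to 10 list members. The 2672 came without cobalt replicate 3 and the 14 without saline replicate 1. With duration as a replicate block, pairing arrays of the same duration, limma called 3247 higher and 3846 lower. Cyp1a1 in the hypoxia channels turned from -0.28 to 0.48 with median scaling and 0.29 with loess and Aquantile, and Atp1b1 from 0.11 to -0.77 with median scaling. The cause of these changes was not tested. At 0 h, the mean over probes took Brd1 to 0.42, Gpx2 to 0.87, Man2a1 to 0.98, Apln to -0.97, Lrrc8a to -0.77 and Srebf1 to -0.79, inside the fold rule. Dim probes, 1 RNA per 0 h group and the shared dye and slide limit what these arrays can separate.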
